A study of Mus musculus with 15 samples.

Results

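The tripartite motif (TRIM) genes encode a family of proteins built on a RING domain, B-box zinc fingers and a coiled coil, most of which act as ubiquitin ligases. They were taken here by symbol (Trim, a number and at most 1 letter) and by level, with at least 10 reads in at least 3 of the 15 libraries. Of 68 such symbols in the tables, 49 met the rule, out of 50554 genes in all. The cells were mouse bone marrow-derived dendritic cells (BMDCs), grown for 9 days with GM-CSF and then kept for 18 h either unstimulated (US) or with lipopolysaccharide (LPS, from E. coli O111:B4) at 10 ng/mL. The mice carried the tamoxifen-inducible CreERT2 transgene, and marrow was taken at least 12 weeks after tamoxifen. Control libraries are labelled Δ/+ and have 1 deleted and 1 wild-type allele of Mysm1, a histone H2A deubiquitinase. The other libraries are labelled Δ/DN and have 1 deleted allele and 1 allele for a catalytically inactive MYSM1; they are called DN below. Both genotypes therefore shared the Cre transgene, the tamoxifen and 1 deleted allele, and the loss of function reached the whole haematopoietic system, not dendritic cells alone. There were 4 control US, 3 control LPS, 4 DN US and 4 DN LPS libraries. The labels do not say that replicates came from separate mice, so the p-values measure only the spread between these libraries. The letters that the series' text gives the genotypes are the opposite of those in the library names, and the genotype field of each sample was followed. If that field were wrong, every difference between genotypes given here would turn round.

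TRIM proteins work at many points of innate immunity. Several tag viral components or signalling adaptors with ubiquitin, some of them raising and others damping the output of RIG-I-like receptors, STING and NF-κB. LPS is sensed through TLR4, whose TRIF branch leads to type I interferon, and interferon-induced genes commonly carry the interferon-stimulated response element (ISRE) near their start. The family is grouped by the domain at the C-terminus, which sets what the protein binds. The PRY-SPRY group is the largest and evolves fast, whereas the PHD-bromodomain group (Trim24, Trim28, Trim33 and Trim66) works on chromatin.

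The libraries held 37256651 to 104041282 reads assigned to genes. All 8 dendritic cell markers examined were detected, with summed levels of 4538 to 6900 CPM (counts scaled to library size) in the US libraries and 6910 to 11317 CPM with LPS. B cell markers summed to at most 1.54 CPM and T and NK cell markers to at most 0.586 CPM. Neutrophil markers summed to 44.6 to 112 CPM in control libraries and to 77.5 to 151 CPM in 6 of the 8 DN libraries, with 928 CPM in DN US 4 and 1081 CPM in DN LPS 4. None of the 7 neutrophil markers was called between genotypes. Mysm1 itself was at 50.4 ± 3.25 CPM (SD, n = 4) in control US and 41.2 ± 9.23 CPM (n = 4) in DN US libraries, which is no check of the labels because the inactive protein is still expressed in DN cells. Among the US libraries 2 stood apart in their interferon-stimulated genes, with control US 4 the lowest and DN US 3 the highest. The mean centred log2 level of 29 such genes was -3.38 in control US 4 and -1.76 to -1.12 in the other controls, and -0.015 in DN US 3 and -2.44 to -1.99 in the other DN libraries.

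Of the 49 members, 48 had reads enough to be tested. The remaining one, Trim43b, had 10 reads or more in exactly 3 libraries and never more than 20. Just outside the rule were Trim15, with 11 reads in 1 library, and Trim58, with 10 reads in 1 library. None of the 19 symbols below the rule had more than 37 reads over all libraries, and 6 of them had 0. All comparisons below used edgeR's quasi-likelihood test over 20865 genes with Benjamini-Hochberg adjustment, and a gene was called at an adjusted p under 0.05. Changes are log2 fold changes with their standard error (SE). Levels are given as CPM, which is not scaled for transcript length, so levels of different TRIM genes were not compared.

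LPS moved most of the family, and moved it in both directions. In control cells 19 of the 48 TRIM genes rose and 20 fell, where 22.4% and 25.3% of all genes tested did so. In DN cells 19 rose and 20 fell, against 23.1% and 25.1% of all genes. Counted by whether every LPS library lies on one side of every US library, 20 rose and 20 fell in control cells (24.3%, 27.8% and, either way, 52.1% of all genes), and 19 rose and 19 fell in DN cells (20.1%, 20.8% and 40.9%). By the test, 81.2% of TRIM genes were called in each genotype, beside 47.7% of all genes in control and 48.2% in DN cells. The median TRIM change was 0.11 in control and 0.12 in DN cells, and over all genes it was -0.08 and -0.09, since risers and fallers were nearly equal in number. The same 17 genes rose in both genotypes, which is 89.5% of each list, and the same 19 fell in both, 95% of each list. This overlap was not counted over all genes, so it is not shown to be particular to the family. As the unit is a whole culture, fewer cells of a type and less RNA per cell cannot be told apart. Within the 7 cultures that gave both a US and an LPS library, all 17 shared risers were higher with LPS every time, and 18 of the 19 shared fallers were lower every time, Trim2 being the exception. These genes were chosen by their calls in the same libraries, so their direction within cultures is not separate evidence.

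**Figure D1:**
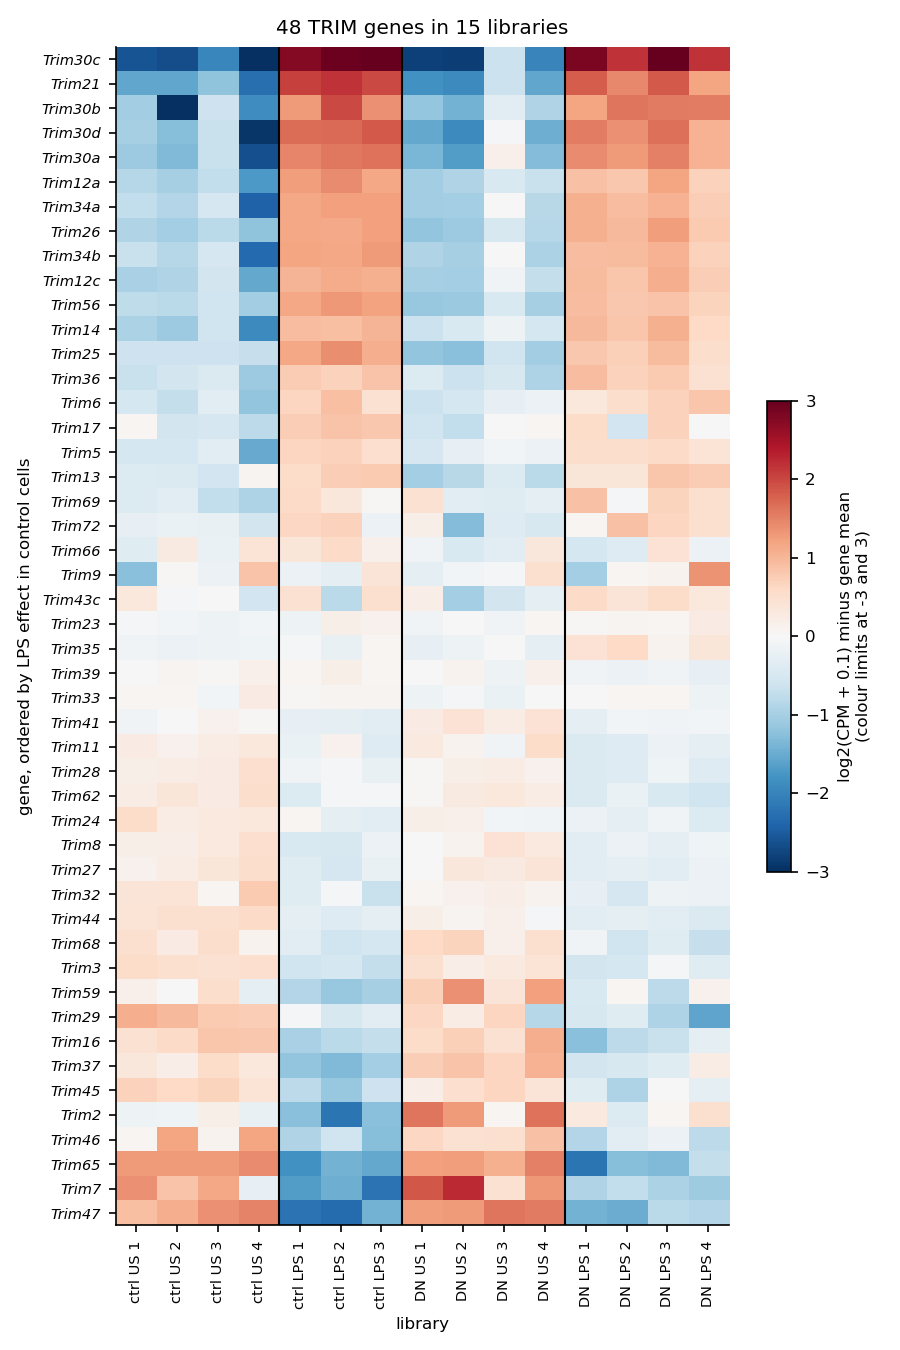
Level of the 48 tested TRIM genes (rows, ordered by LPS effect in control cells) in the 15 libraries (columns), as log2(CPM + 0.1) minus the gene's mean over libraries, with colour limits at -3 and 3. The 17 shared risers fill the top of the map, blue in US and red in LPS libraries, and the shared fallers the bottom; control US 4 and DN US 3 differ from the other US libraries in the upper rows.

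**Figure D2:**
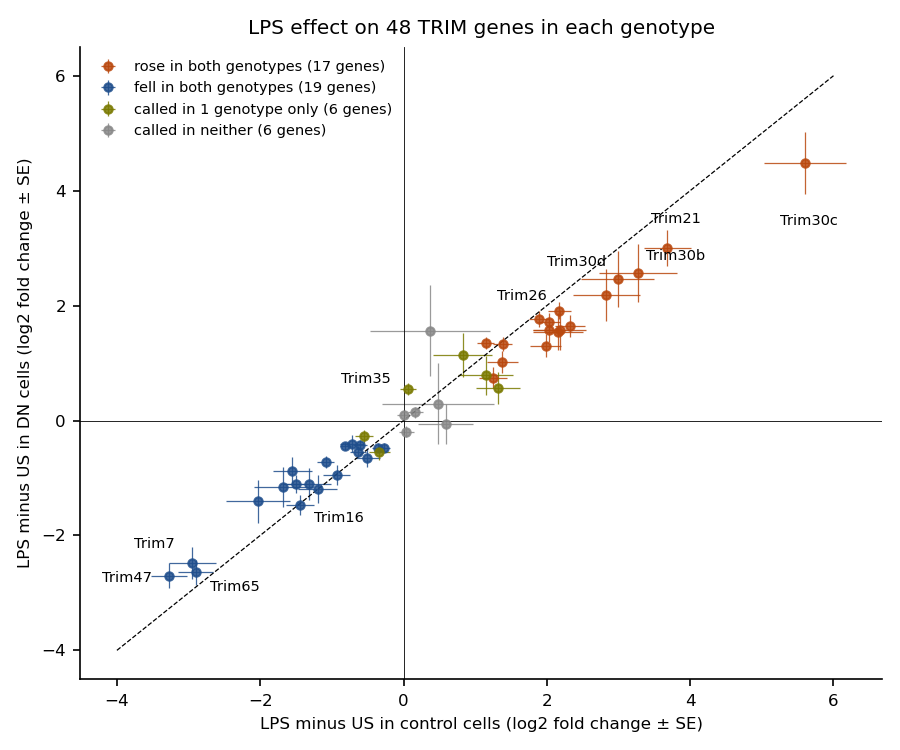
LPS effect in control cells (horizontal) against DN cells (vertical) for 48 TRIM genes, as log2 fold change with SE bars; the dashed line marks equal effects. The 17 genes that rose in both genotypes and the 19 that fell in both lie in opposite corners, and most of the risers lie below the dashed line.

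The counts differed between domain groups, most of which had few members. Groups were taken from a fixed list, and the domains of each mouse protein were not checked. Of the 27 tested members listed as PRY-SPRY with a RING domain, 15 rose and 7 fell in control cells. In DN cells 15 rose and 8 fell. Of these risers, 10 in each genotype are the Trim5/Trim30 cluster described below. They are neighbours on chromosome 7, so they are not separate observations of the domain group. Of all genes tested, 22.4% rose and 25.3% fell in control cells, and 23.1% and 25.1% in DN cells. All 3 members with NHL repeats (Trim2, Trim3 and Trim32) fell in both genotypes. Of the 4 members that lack the RING, Trim14 rose and Trim16, Trim29 and Trim44 fell, in both genotypes. The 2 membrane-anchored members went opposite ways, Trim13 up and Trim59 down, again in both. No member of the PHD-bromodomain group rose in either genotype.

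The risers included the whole Trim5/Trim30 cluster. In the RefSeq gene order of mouse chromosome 7, Trim6, Trim34a, Trim5, Trim12a, Trim34b, Trim12c, Trim30b, Trim30c, Trim30a and Trim30d take up 10 of 11 neighbouring protein-coding genes. The group is the rodent counterpart of the locus that holds the primate retroviral restriction factor TRIM5, and Trim30a is known for damping TLR-driven NF-κB signalling through the adaptors TAB2 and TAB3. All 10 genes rose with LPS in both genotypes. Their changes ran from 1.25 (Trim5) to 5.60 (Trim30c) in control cells, with a median of 2.25, and from 0.75 (Trim5) to 4.48 (Trim30c) in DN cells, with a median of 1.62.

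Trim30c gave the highest rise of the family in both genotypes. It stood at 12.3, 11.7, 18.9 and 6.13 CPM in the control US libraries and at 500.4, 575 and 652 CPM in the control LPS libraries. In DN cells it was at 10.6, 10.3, 47.3 and 18.7 CPM without LPS and at 524, 336, 621 and 335 CPM with it. The US and LPS libraries were far apart in each genotype, although DN US 3 lay well above the other US libraries. The rise was 48.5-fold in control cells (log2 5.60 ± 0.57 SE, adjusted p = 5.7e-06 by edgeR) and 22.4-fold in DN cells (4.48 ± 0.53, adjusted p = 2.25e-05 by edgeR). Without DN US 3 the DN value was 5.11 in log2.

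Trim30a was at 208, 178, 278 and 71.0 CPM in control US libraries and at 1217, 1323 and 1368 CPM in control LPS libraries. In DN cells it was at 172, 138, 490.2 and 180.5 CPM without LPS and at 1185, 1071, 1259.8 and 910.2 CPM with it. Again no US library reached any LPS library, and again control US 4 was the lowest and DN US 3 the highest without LPS. The rise was 7.12-fold in control cells (2.83 ± 0.47, adjusted p = 0.000281 by edgeR) and 4.55-fold in DN cells (2.19 ± 0.45, adjusted p = 0.00135). Trim30d followed it closely, with 2.99 ± 0.51 in control and 2.47 ± 0.49 in DN cells. Without DN US 3 the DN values were 2.82 for Trim30a and 3.12 for Trim30d. The other cluster members moved less in control cells, apart from Trim30b at 3.27 ± 0.55, which had few reads (0.0477 to 0.950 CPM in US libraries) and a value of 3.99 without control US 3. Trim12a, Trim34a, Trim34b and Trim12c were between 2.03 and 2.32 there, Trim6 was at 1.38 and Trim5 at 1.25.

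**Figure D3:**
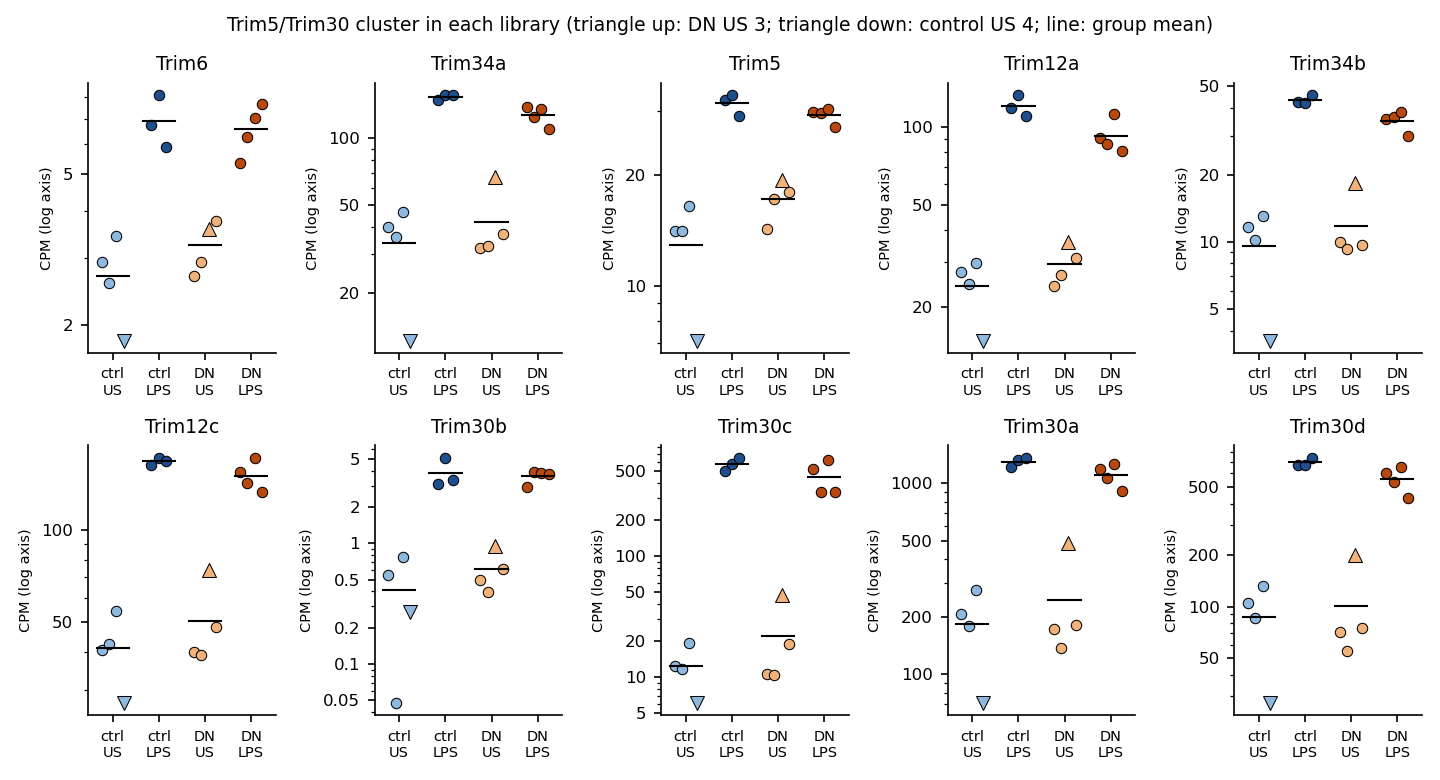
CPM of the 10 cluster genes in each library on log axes, by group, with a line at the group mean. In each genotype every LPS library lies above every US library for all 10 genes; the upward triangle is DN US 3 and the downward triangle is control US 4.

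Close relatives in the cluster share sequence, so reads could have been split between them. In GENCODE vM21 transcripts, 59.0% of the 50-base stretches of Trim34b and 41.3% of those of Trim34a also occur in another TRIM gene. The shares were 31.0% for Trim5 and 28.4% for Trim12c, 8.29% for Trim30d and 6.53% for Trim30a, and below 1% for Trim12a, Trim30b and Trim30c. The separate values of Trim34a and Trim34b, and of Trim5 and Trim12c, are therefore uncertain, and how the authors' counting treated shared reads is not given in the sources used here.

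Several of the cluster's promoters also share sequence, and 7 of 11 hold the form of the ISRE searched for. The RefSeq promoter table (build GRCm38.p6, 250 bases before to 50 after each start) had an entry for 36 of the 48 tested members. The ISRE core searched for, GAAA, any 2 bases, GAAA, on both strands, was present in 3.44% of all 32851 promoters and in 9 of the 17 promoters of the shared risers (52.9%). Of these 9, 7 are the cluster's, which share sequence and are not separate observations. Among shared risers outside the cluster, 2 of 6 promoters had a match, those of Trim21 and Trim26. The cluster promoters with a match belong to 6 of its 10 genes. The core was in 1 of the 21 promoters of the shared fallers, that of Trim2. These counts describe the letters in the window, and no binding was measured. The stretches below are shown because the same letters recur in neighbouring genes; they run 5′ to 3′ on the gene's strand, with the ISRE core in capitals, where overlapping matches are joined. Where the match lies before the start, up to 25 bases flank it on each side, and where it lies after the start, 10 bases do.
Trim30a (chr7:104465195-104465254, minus strand): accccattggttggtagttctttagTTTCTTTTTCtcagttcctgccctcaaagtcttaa
Trim30d (chr7:104507856-104507915, minus strand): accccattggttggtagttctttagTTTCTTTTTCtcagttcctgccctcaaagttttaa
Trim5 (chr7:104288121-104288180, minus strand): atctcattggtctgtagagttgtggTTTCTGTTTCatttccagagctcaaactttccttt
Trim12c (chr7:104353350-104353403, minus strand): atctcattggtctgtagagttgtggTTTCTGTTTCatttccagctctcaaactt
Trim12a (chr7:104315466-104315495, minus strand): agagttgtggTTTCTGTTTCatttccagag
Trim34a (chr7:104244457-104244486, plus strand): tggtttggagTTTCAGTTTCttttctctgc
Trim21 (chr7:102565450-102565479, minus strand): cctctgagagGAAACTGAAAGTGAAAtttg
Trim26 (chr17:36836961-36837020, plus strand): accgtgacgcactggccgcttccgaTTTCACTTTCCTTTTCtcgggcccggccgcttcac
The match began 36 bases before the start in Trim30a and 41 before it in Trim30d. A second Trim30a promoter in the table held a match 2 bases after its start. The tabled starts of Trim5, Trim12a and this second Trim30a promoter were not found in GENCODE vM21 transcripts (by their first 20 transcribed bases), so no distance is given for Trim5 and Trim12a. Over the 60 bases around the match, Trim30a and Trim30d differed at 1 base, Trim5 and Trim12a at 0, and Trim5 and Trim12c at 3. The windows of Trim6, Trim34b, Trim30b and Trim30c held no match, although Trim30c rose the most. The other forms searched, on both strands, were that bound by STAT factors (TTC, any 3 bases, GAA) and an NF-κB form (GGG, any 2 bases, TTTCC). The STAT form was in 3 of the 49 TRIM promoters, beside 8.30% of all promoters, and the NF-κB form in 0 of 49, beside 1.63% of all.

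Outside the cluster, 7 more genes rose in both genotypes, several of which act on nucleic acid sensing. Trim21, the cytosolic antibody receptor that sends antibody-coated virus for degradation, was at 20.5, 20.4, 26.3 and 12.6 CPM in control US and at 250.4, 271 and 240.3 CPM in control LPS libraries. In DN cells it was at 17.0, 16.1, 38.8 and 20.4 CPM without LPS and at 212, 165, 217 and 139 CPM with it. No US library came near an LPS library. All 4 DN LPS libraries lay below the 3 control LPS libraries, as they did for 12% of all genes tested. That difference, -0.51 ± 0.33, was not called (adjusted p = 0.358 by edgeR). Trim21 rose 12.8-fold in control cells (3.68 ± 0.32, adjusted p = 1.17e-06 by edgeR) and 8.01-fold in DN cells (3.00 ± 0.30, adjusted p = 4.3e-06).

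Trim25, the ligase best known for activating RIG-I, rose by 1.89 ± 0.14 in control and 1.76 ± 0.14 in DN cells. Trim56, which promotes signalling through STING, rose by 2.03 ± 0.15 and 1.72 ± 0.14. Trim14, an adaptor without a RING that joins the MAVS and cGAS pathways, rose by 1.98 ± 0.22 and 1.30 ± 0.20. Trim26, whose promoter holds 2 overlapping ISRE matches, rose by 2.18 ± 0.16 and 1.91 ± 0.15. Both Trim36, known for binding microtubules, and Trim13, a ligase of the endoplasmic reticulum membrane, had nearly the same rise in each genotype. For Trim36 it was 1.38 ± 0.13 in control and 1.34 ± 0.12 in DN cells, and for Trim13 1.15 ± 0.12 and 1.35 ± 0.11. All of these had an adjusted p under 0.001 by edgeR in both genotypes, and for none was the difference in LPS effect between genotypes called.

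The fallers were led by Trim47, Trim7 and Trim65. Trim47 was at 3.84, 4.34, 5.34 and 5.75 CPM in control US and at 0.354, 0.322 and 0.681 CPM in control LPS libraries. In DN cells it was at 4.90, 4.96, 6.33 and 6.14 CPM without LPS and at 0.684, 0.651, 1.10 and 1.05 CPM with it. The LPS libraries all lay far below the US libraries, a fall of 9.70-fold in control cells (-3.28 ± 0.25, adjusted p = 1.21e-07 by edgeR) and of 6.50-fold in DN cells (-2.70 ± 0.21, adjusted p = 1.62e-07). Trim65, which is known to activate the RNA sensor MDA5, was at 12.2 to 13.5 CPM in control US and 1.35 to 1.81 CPM in control LPS libraries. Its fall was 7.48-fold in control cells (-2.90 ± 0.25) and 6.24-fold in DN cells (-2.64 ± 0.22). Trim7, which binds the glycogen primer glycogenin, fell by 2.95 ± 0.32 in control and 2.47 ± 0.28 in DN cells.

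Smaller falls were seen for genes of quite different roles. Trim37, a ligase of centrosomes and peroxisomes that also ubiquitylates histone H2A, fell 2.83-fold in control and 2.15-fold in DN cells. Trim16, which takes part in the autophagy of damaged lysosomes, fell by 1.45 ± 0.19 and 1.47 ± 0.17. Trim3, an NHL-repeat ligase, fell by 1.08 ± 0.12 and 0.73 ± 0.11. Trim44, which has a ubiquitin-protease-like zinc finger in place of the RING, fell by 0.81 ± 0.08 and 0.45 ± 0.07. The other shared fallers had changes of -2.03 (Trim46) to -0.28 (Trim41) in control cells and of -1.41 (Trim46) to -0.40 (Trim32) in DN cells.

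On chromatin, Trim28 is the co-repressor (KAP1) that KRAB zinc finger proteins recruit to silence retroelements. It was at 92.3, 95.8, 97.6 and 116 CPM in control US and at 76.4, 80.9 and 70.4 CPM in control LPS libraries, and at 83.9, 92.8, 96.0 and 90.5 CPM in DN US and 60.6, 63.0, 74.8 and 63.3 CPM in DN LPS libraries. The LPS libraries were lower without overlap in each genotype, by a modest step of -0.36 ± 0.09 in control (adjusted p = 0.00295 by edgeR) and -0.47 ± 0.08 in DN cells (adjusted p = 0.000137). Its relative Trim24, a co-regulator of nuclear receptors, fell in control cells (-0.55 ± 0.12, adjusted p = 0.00167 by edgeR) and in DN cells had -0.27 ± 0.11 (adjusted p = 0.053). Trim33, which works with SMAD proteins, was at 45.0 to 56.1 CPM in US and 48.7 to 50.4 CPM in LPS control libraries, with a change of 0.00 ± 0.09 that did not pass the test. Between genotypes Trim24, Trim28 and Trim33 were lower in DN cells in estimate, by 0.18 to 0.29 without LPS, and none was called. With LPS, Trim28 had -0.30 ± 0.09 (adjusted p = 0.0527 by edgeR).

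A few members passed the test in 1 genotype only. Trim17 and Trim69 rose and Trim24 fell in control cells alone, while Trim35 and Trim72 rose and Trim11 fell in DN cells alone. The test of the difference between genotypes was passed by none of these 6. The 6 members called in neither genotype were Trim9, Trim23, Trim33, Trim39, Trim43c and Trim66.

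Comparing genotypes without LPS, 4 TRIM genes were higher and 2 lower in DN cells, where 5.01% of all genes tested were higher and 5.45% lower. As a share, 12.5% of members were called beside 10.5% of all genes. The median difference was 0.02 over the members and 0.01 over all genes. Higher were Trim2, Trim59, Trim7 and Trim41, and lower were Trim44 and Trim13.

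Trim2, an NHL-repeat ligase best known for neurofilament light chain in neurons, was at 1.11, 1.13, 1.42 and 1.06 CPM in control US and at 3.98, 3.14, 1.30 and 4.05 CPM in DN US libraries. Of the DN libraries 3 were above all controls, and DN US 3 was within the control range. The difference was 1.42 ± 0.35 (adjusted p = 0.0239 by edgeR). Trim59, a membrane-bound member, was at 8.20, 7.36, 10.6 and 6.13 CPM in control and at 12.2, 19.3, 9.66 and 17.5 CPM in DN libraries. Here too DN US 3 overlapped the controls, and the difference was 0.93 ± 0.24 (adjusted p = 0.0302 by edgeR). Trim7 had 0.93 ± 0.26 (adjusted p = 0.0392 by edgeR), again with overlapping groups.

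Trim41, a ligase reported to act on protein kinase C, was higher by 0.31 ± 0.08 without overlap, at 22.5 to 26.2 CPM in control and 28.2 to 32.4 CPM in DN libraries (adjusted p = 0.0328 by edgeR). Trim44 had the smallest p of the members, at 68.9, 72.7, 72.9 and 77.8 CPM in control and 59.0, 55.1, 58.0 and 51.1 CPM in DN libraries. The groups did not overlap, and the difference was -0.39 ± 0.07 (adjusted p = 0.00883 by edgeR). Trim13 was at 7.46, 7.33, 6.69 and 10.6 CPM in control and 4.85, 5.57, 7.45 and 5.69 CPM in DN libraries, a difference of -0.54 ± 0.11 (adjusted p = 0.0111 by edgeR) with DN US 3 inside the control range. Of the 48 members, 2 were higher and 3 lower in DN cells without overlap of the libraries, beside 6.28% and 6.2% of all genes.

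None of these 6 calls held when control US 4, the only control library marked Tmx3 in its name, was left out. That step left 54 genes higher and 120 lower in the whole table, and the DN libraries marked Tmx3 then had no control of their set. No member was called higher without control US 2, DN US 2 or DN US 4 either, 1 was without control US 1, 2 were without DN US 1, and 4 were called lower without DN US 3. Within the library set marked Tmx2 in the names (3 control and 2 DN US libraries), Trim2 (1.51 ± 0.34, adjusted p = 0.03 by edgeR), Trim7 (0.91 ± 0.24, adjusted p = 0.0439) and Trim44 (-0.34 ± 0.09, adjusted p = 0.0398) were called, and Trim59, Trim41 and Trim13 kept their sign without passing. The Tmx3 set has 1 control US library and no control LPS library, so it gives no value of its own.

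With LPS, 4 TRIM genes were higher and 1 lower in DN cells, beside 5.37% and 3.23% of all genes, or 10.4% of members beside 8.6% of all. The median difference was -0.05 over the members and 0.01 over all genes. Trim2 and Trim7 were higher as they were without LPS, and Trim37 and Trim35 were higher besides. Trim25 was the one called lower. Without overlap of the libraries, 5 members were higher and 8 lower in DN cells, beside 12.6% and 12% of all genes.

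Trim2 was at 0.464, 0.193 and 0.458 CPM in control LPS and at 1.55, 0.902, 1.31 and 1.78 CPM in DN LPS libraries. All DN libraries lay above all controls, with a difference of 1.93 ± 0.44 (adjusted p = 0.0205 by edgeR). The control values of Trim2 rest on few reads (34, 12 and 35). Trim37 was at 5.17, 4.72 and 5.84 CPM in control and at 8.09, 8.52, 9.22 and 14.0 CPM in DN libraries. These too were apart, by 0.82 ± 0.18 (adjusted p = 0.0186 by edgeR), and without LPS Trim37 had 0.42 ± 0.15 (adjusted p = 0.0937). Trim7 was higher by 1.40 ± 0.34 without overlap (adjusted p = 0.0251 by edgeR).

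Trim35, a PRY-SPRY ligase first described in haematopoietic cells, was at 85.9, 77.2 and 93.1 CPM in control LPS and at 120.3, 137, 95.8 and 115 CPM in DN LPS libraries. The DN libraries were all higher, by 0.49 ± 0.12 (adjusted p = 0.0247 by edgeR), whereas without LPS the difference was -0.00 ± 0.10. Trim25 was at 699, 829 and 669.7 CPM in control LPS and at 549, 516, 610.1 and 453 CPM in DN LPS libraries. All DN libraries were lower, by 0.53 ± 0.15 in log2 (adjusted p = 0.046 by edgeR). Without LPS, Trim25 was at 195 to 206 CPM in control libraries and at 138, 133, 207 and 154 CPM in DN libraries, and its difference of -0.40 ± 0.14 did not pass (adjusted p = 0.0762 by edgeR).

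No TRIM call with LPS was left in a fit of the LPS libraries alone, where the spread is estimated from 3 and 4 libraries. In that fit the difference rested on the 3 control libraries, DN LPS 1 and DN LPS 2. The set term took up DN LPS 3 and DN LPS 4, since no control LPS library is marked Tmx3. Leaving out control LPS 1 or control LPS 2 ended the calls of all 5 genes, and 1 member was called higher without DN LPS 2. Trim25 kept its call in 1 of 7 fits that each left out 1 LPS library. Within the Tmx2 set, Trim37 (0.66 ± 0.14), Trim2 (1.70 ± 0.38), Trim35 (0.59 ± 0.10), Trim7 (1.02 ± 0.27) and Trim25 (-0.46 ± 0.10) were all called. Markers of other cells differed between genotypes too, and their part in these differences was not tested. Without LPS, 3 of 7 macrophage markers were called higher and 1 lower in DN cells, and 2 of 3 progenitor, 2 of 3 erythroid and 2 of 3 stromal markers were called higher. With LPS, 1 macrophage marker was higher and 1 lower, 1 progenitor marker was higher, and 0 erythroid and 0 stromal markers were called. In each condition 1 of 8 dendritic cell, 1 of 5 plasmacytoid, and 1 of 5 mast cell and basophil markers was higher. Of all genes, 5.01% were higher and 5.45% lower without LPS, and 5.37% and 3.23% with it. The progenitor sum was 16.6 to 19.6 CPM in control US and 16.7 to 40.1 CPM in DN US libraries, and the macrophage sum was 679.7 to 887 and 659 to 1005 CPM. Erythroid and stromal markers summed to at most 3.28 CPM in any library.

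**Figure D4:**
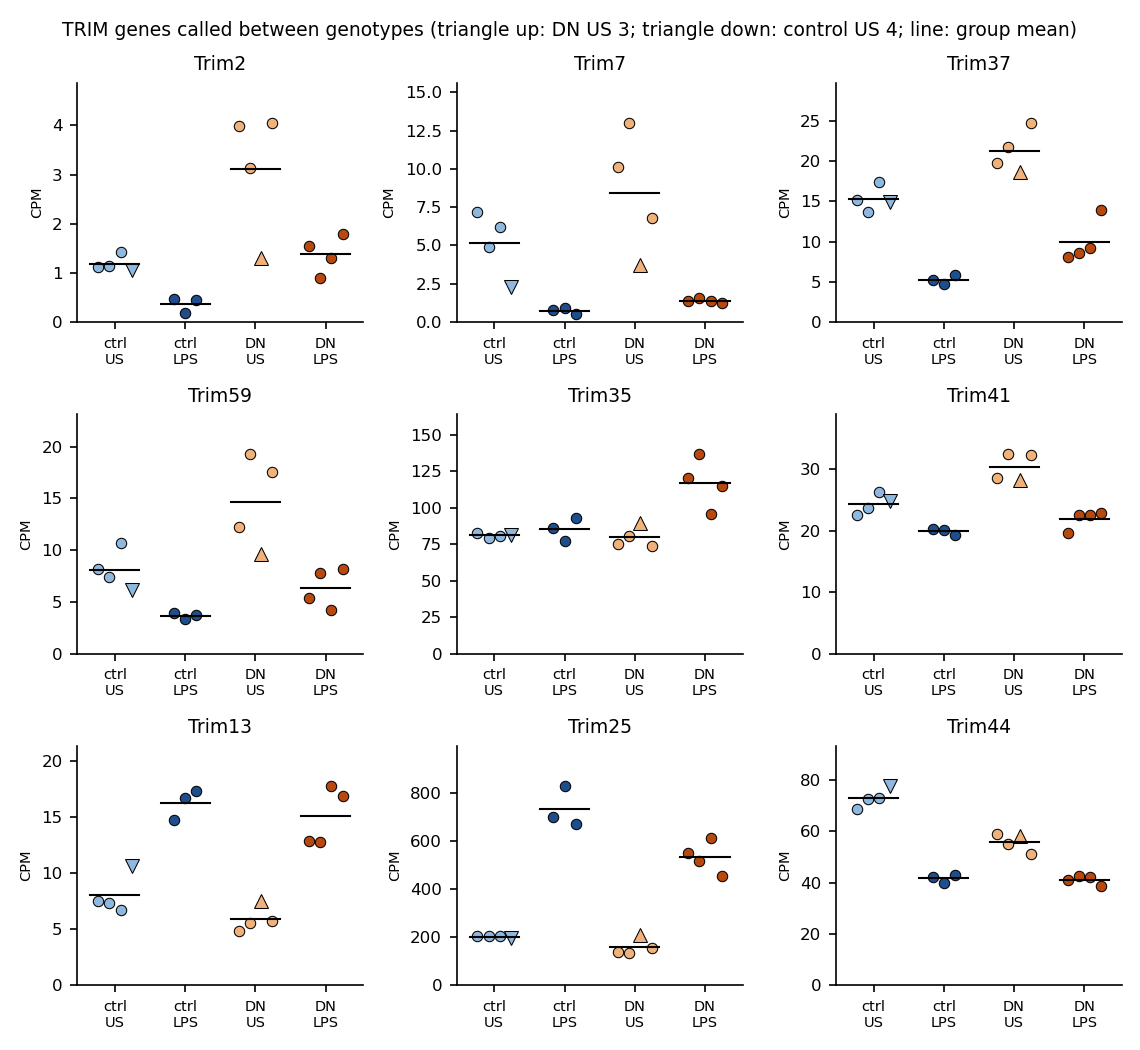
CPM in each library, by group, of the 9 TRIM genes called between genotypes in either condition, on axes from 0 with a line at the group mean. Trim2 and Trim7 are higher in DN cells in both conditions, Trim35 is higher in DN cells with LPS, and Trim44 is lower in DN cells without LPS, its groups overlapping with LPS; the triangles mark DN US 3 (upward) and control US 4 (downward).

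The last comparison asked whether LPS acted differently on the TRIM genes in DN cells. No member was called by edgeR, and 1 gene of all 20865 tested was (0.00479%). At an unadjusted p under 0.05 there were 5 of 48 members (10.4%), beside 8.98% of all genes, and DESeq2 also called 0 members. The members with the smallest p were Trim44, whose fall was 0.37 ± 0.11 weaker in DN cells (adjusted p = 0.307 by edgeR), and Trim35, whose change was 0.49 ± 0.15 higher (adjusted p = 0.332).

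For the Trim5/Trim30 cluster the estimates were all on one side but depended on few libraries. All 10 had a smaller rise in DN cells in estimate, by 0.36 to 1.12, with a median of -0.60 and none called. Part of this lay in the US libraries, where all 10 had a higher estimate in DN cells (median 0.39, none called), and part in the LPS libraries, where all 10 had a lower one (median -0.20, none called). Of the 10 genes, 9 had their lowest US level in control US 4 and 9 their highest in DN US 3. Among the LPS libraries, 8 had their lowest level in DN LPS 4 and 2 in DN LPS 1. DN LPS 4 also had the highest neutrophil marker sum (1081 CPM), whose part was not tested. Without control US 4 the US median was -0.07, with 8 of 10 genes below 0, and the median of the LPS effect difference was -0.30. That fit has no control library of the Tmx3 set. Within the Tmx2 set the US median was -0.26, with 9 of 10 genes below 0, and the LPS effect differed by a median of 0.04, with 4 genes below 0 and 6 above. Trim30d changed sides with a call, from 0.20 ± 0.53 over all libraries to -0.79 ± 0.17 within that set (adjusted p = 0.0247 by edgeR). Between the LPS libraries of the 2 genotypes, all 10 genes were below 0 over all libraries, without control US 4 and within the Tmx2 set, where Trim12a was called (-0.45 ± 0.11, adjusted p = 0.0309 by edgeR). These settings share the same control LPS libraries, DN LPS 1 and DN LPS 2, so their common sign is not a separate observation each time.

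The cluster and the interferon-stimulated genes were both higher in every LPS library and shared their extreme libraries, but they did not rank all US libraries alike. All 29 listed interferon-stimulated genes found in the tables rose with LPS in both genotypes, with medians of 3.90 in control and 2.96 in DN cells, and none was called between genotypes. Their mean centred log2 level was 2.21 to 2.35 in control LPS and 1.37 to 2.08 in DN LPS libraries. The mean centred level of the 10 cluster genes was 1.31 to 1.47 in control LPS and 0.99 to 1.34 in DN LPS libraries, with DN LPS 4 the lowest on both scales. Without LPS the cluster stood at -2.17 in control US 4 and at -0.18 in DN US 3, beside -1.33 to -0.68 in all other US libraries. Among those others the order differed. DN US 4 was below control US 2 in the interferon-stimulated genes (-1.99 against -1.76) and above it in the cluster (-0.92 against -1.33). Plasmacytoid dendritic cell markers also summed higher with LPS (332 to 578 CPM) than without (46.7 to 183 CPM), but Tcf4 and Bst2 made up 88.3 to 99.7% of that sum and Bst2 is also on the interferon-stimulated list. Of the 5 markers, 3 rose in both genotypes, whereas Siglech and Pacsin1 were not called in the LPS comparisons and Siglech was at most at 0.349 CPM. The part of these cells in the rise of the cluster was not tested.

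**Figure D5:**
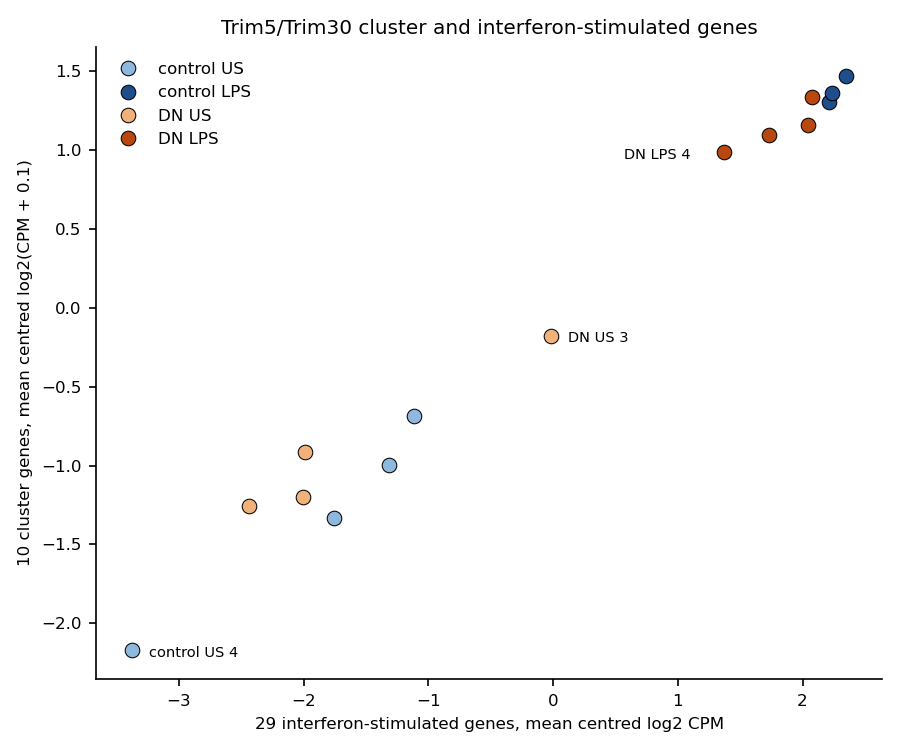
Mean centred log2 level of 29 interferon-stimulated genes (horizontal) against that of the 10 Trim5/Trim30 cluster genes (vertical) in each of 15 libraries, coloured by group. Control US 4 lies at the lower left, DN US 3 between the other US libraries and the LPS libraries, and DN LPS 4 lowest among the LPS libraries; the points share library depth and normalization.

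Of the proteins on which TRIM ligases act, 17 of 18 listed signalling genes were found. With LPS 11 rose and 3 fell in control cells, and 13 rose and 3 fell in DN cells. Of all genes tested, 22.4% rose and 25.3% fell in control and 23.1% and 25.1% in DN cells. Nlrp3, the inflammasome sensor, rose by 2.24 ± 0.14 in control and 2.24 ± 0.13 in DN cells, and Tab2, a target of Trim30a, by 1.73 ± 0.12 and 1.39 ± 0.11. Mavs, the adaptor downstream of the Trim25 target RIG-I, fell by 1.44 ± 0.15 and 1.26 ± 0.13. Between genotypes without LPS, 1 was higher and 4 were lower in DN cells (5.01% and 5.45% of all genes), among them Sting1 at 0.73 ± 0.17 (adjusted p = 0.0182 by edgeR), Ikbkg at -0.82 ± 0.11 (adjusted p = 0.00254) and Nlrp3 at -0.52 ± 0.13 (adjusted p = 0.0246). With LPS, Sting1 (0.69 ± 0.19) and Mavs (0.52 ± 0.15) were higher, and Tab2 (-0.45 ± 0.12) and Nlrp3 (-0.51 ± 0.15) were lower, where 5.37% of all genes were higher and 3.23% lower.

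All 10 listed partners of the Trim28 co-repressor were tested. With LPS 2 rose and 5 fell in control cells, and 2 rose and 4 fell in DN cells, beside the same shares of all genes as above. Setdb1, the histone H3 lysine methyltransferase that Trim28 recruits, fell by 0.79 ± 0.08 in control and 0.84 ± 0.08 in DN cells, alongside Trim28 itself. Between genotypes 3 were higher and 1 lower in DN cells without LPS, beside 5.01% and 5.45% of all genes. With LPS 2 were higher and 0 lower, beside 5.37% and 3.23% of all genes. Cbx5, a heterochromatin protein of the HP1 family, was higher in DN cells by 1.14 ± 0.23 without LPS (adjusted p = 0.012 by edgeR) and by 1.43 ± 0.26 with LPS (adjusted p = 0.0107). Its relative Cbx3 was higher by 0.64 ± 0.19 (adjusted p = 0.0483 by edgeR) and 1.03 ± 0.23 (adjusted p = 0.0188). Trim28 was not called in either of these comparisons.

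Of 4 family members that carry other names, 2 rose with LPS in both genotypes. Mid2 fell in control cells only, at no more than 0.222 CPM in any library, and Mid1 was called in neither genotype. Of all genes tested, 22.4% rose and 25.3% fell in control cells, and 23.1% and 25.1% in DN cells. Pml, the organiser of PML nuclear bodies and itself interferon-induced, rose by 3.29 ± 0.43 in control and 2.48 ± 0.40 in DN cells. Mefv, which encodes the inflammasome sensor pyrin, rose by 2.31 ± 0.38 and 2.84 ± 0.36. Neither was called between genotypes.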

How the data were processed

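The authors deposited 1 table of raw read counts per gene for each of the 15 libraries. Per the labels, libraries came from a KAPA HyperPrep kit that removes ribosomal RNA, and the submitters' processing notes name Trimmomatic 0.33, HISAT2 2.2.1, featureCounts and the mouse build mm39 (GRCm39). Strand setting and the treatment of shared reads are not given in the sources used here.

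The counts were analysed in R 4.3.3 with edgeR 4.0.16: low counts were removed with filterByExpr (minimum count 10), libraries were scaled by TMM, and a robust quasi-likelihood model was fitted to all 15 libraries with the 4 groups and a term for the library set (Tmx2 or Tmx3 in the library names). What these prefixes stand for is not given in the sources used here. CPM values use TMM library sizes. The fit was tested on simulated data. Named genes were, per comparison, up to 8 called members in each direction with the smallest p, the Trim5/Trim30 cluster, Trim21, Trim24, Trim25, Trim28 and Trim33, and of the other lists the 2 genes of smallest p per direction. Other genes named singly were chosen after their values were seen. The members, lists and comparisons were chosen with earlier results of these data known.

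Library names give 7 cultures with both a US and an LPS library; deviations from group means of such libraries correlated at 0.06 to 0.43 over all genes, and fits with the culture as a block were run. Alternatives were RLE scaling, DESeq2 1.42.0, limma 3.58.1 voom, no filter, other sample sets and leaving out libraries or cultures. Depth (37256651 to 104041282 reads) puts 3 reads at 0.0278 to 0.0655 CPM, a floor for counting error only.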

Additional observations from a re-analysis of the deposited data

Results flagged for a closer look

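Among 96 groups of 4 libraries examined for 32 named TRIM genes, 6 held 1 library far from the rest, where chance gives about 1 in 20. In 4 of them it was DN US 3, the highest of the DN US libraries. Trim30a was at 490.2 CPM there and at 138 to 180.5 CPM in the other DN US libraries. Trim30d was at 201 CPM against 55.1 to 74.7 CPM, Trim34a at 66.8 CPM against 32.1 to 37.0 CPM, and Trim34b at 18.4 CPM against 9.29 to 9.96 CPM. These are neighbours on chromosome 7, so they are not separate observations. The 29 interferon-stimulated genes were also highest in that library among the US libraries. The remaining cases were Trim65 in control US 4, at 13.5 CPM against 12.2 to 12.4 CPM, and Trim41 in DN LPS 1, at 19.6 CPM against 22.5 to 22.8 CPM.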

How the results depend on the processing

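The counts and named calls of the LPS effect held, and among named genes 4 cluster values moved by over 1.5 times. In every setting run, 16 to 21 members were called in each direction and genotype, and the 27 named calls in control and 24 in DN cells were kept in every fit without 1 library of the comparison and in all 8 other settings. Leaving out DN US 3 moved the DN rise of Trim30c from 4.48 to 5.11, of Trim30a from 2.19 to 2.82 and of Trim30d from 2.47 to 3.12, and leaving out control US 3 moved the control rise of Trim30b from 3.27 to 3.99. Within the Tmx2 set those DN values were 5.38, 2.90 and 3.20, and without control culture 2 or 3 Trim30b was at 2.62 or 4.08. With the culture as a fixed replicate block in edgeR, 19 members rose and 19 fell in control cells, 19 rose and 21 fell in DN cells, and 0 differed in LPS effect. The block changed no other count by over 1.5 times except that voom with the culture as a random block (correlation 0.279) called 2 members lower in DN cells with LPS, not 1.

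The counts between genotypes moved. Without LPS, 2 members were called higher with no filter on low counts, within the Tmx2 set and without DN cultures 3 and 4 (an alternative chosen after seeing the data), and leaving out 1 library or culture gave 0 to 6. The count called lower was 1 without the set term and in a fit of the US libraries alone, 4 within the Tmx2 set and without DN cultures 3 and 4, and 0 to 4 on leaving out 1 library or culture. With LPS, 0 members were higher in a fit of the LPS libraries alone, and 0 to 5 on leaving out 1 library or culture. The count called lower was 3 with DESeq2, within the Tmx2 set and without DN cultures 3 and 4, 0 without the set term and in the LPS libraries alone, and 0 to 3 on leaving out 1 library or culture. Trim30d without LPS reversed from 0.20 to -0.79 within the Tmx2 set and to -0.78 without DN cultures 3 and 4. The cause of these changes was not tested. Trim43c, Trim9, Trim66 and Trim69 had few reads, and differences in them were hardly detectable at this depth.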
